A study of Mus musculus with 6 samples.

Results

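Calcium release from the sarcoplasmic reticulum (SR) was read here through 10 genes: the ryanodine receptors Ryr1, Ryr2 and Ryr3, the inositol trisphosphate (IP3) receptors Itpr1, Itpr2 and Itpr3, the calsequestrins Casq1 and Casq2, triadin (Trdn) and junctophilin 2 (Jph2). They were chosen by name from the 46983 genes of the tables, with differences between the groups already known from these same hearts, so their fold changes and p-values are given as a description. All 10 genes had enough counts to be tested, among 17473 genes in all. The samples were whole hearts of mouse embryos at E13.5, with 1 heart per library, of the strain C57BL/6 x DBA/2. There were 3 hearts labelled wild type (replicates 2, 3 and 5) and 3 mutant hearts of the genotype TnnT2Cre;Wt1flox (replicates 1, 5 and 10). The study's methods give the wild type hearts as Wt1 flox/flox without Cre, so that the floxed Wt1 alleles were shared by both groups. In the mutant hearts, Cre under the cardiac troponin T promoter deleted Wt1, which codes for the Wilms' tumor transcription factor WT1, in the cardiomyocyte lineage, and the same Cre also recombined in a part of the epicardium.

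In mature cardiomyocytes, contraction follows calcium that enters through the L-type channel of the plasma membrane. This calcium opens ryanodine receptors in the facing SR membrane, which release a far larger store of calcium onto the myofilaments. Ryr2 is the cardiac ryanodine receptor, Ryr1 the skeletal muscle form and Ryr3 a form found at low levels in brain and other tissues. IP3 receptors are related release channels that open when phospholipase C makes IP3. Calsequestrin binds calcium inside the SR, triadin anchors it to the ryanodine receptor, and junctophilin 2 bridges the SR and the plasma membrane. In adult tissue Casq2 is the cardiac calsequestrin and Casq1 that of fast skeletal muscle.

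The 6 channels share the stretch that forms the selectivity filter of the pore, which is shown because it places both families side by side and shows how far the copies can be told apart by their reads. The coding sequence was read from GENCODE M21 transcripts on GRCm38. Numbered along the longest transcript, it lies in exon 102 of Ryr1 (chr7:29005577-29005636, minus strand), exon 101 of Ryr2 (chr13:11560606-11560665, minus strand) and exon 100 of Ryr3 (chr2:112636610-112636669, minus strand). In the IP3 receptors it lies in exon 58 of Itpr1 (chr6:108518767-108518826, plus strand), exon 52 of Itpr2 (chr6:146158890-146158949, minus strand) and exon 54 of Itpr3 (chr17:27118610-27118669, plus strand). Each stretch of 60 bases is written 5′ to 3′ on the coding strand, with the 18 bases that code for the filter in capitals.
Ryr1: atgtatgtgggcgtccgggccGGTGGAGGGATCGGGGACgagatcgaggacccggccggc
Ryr2: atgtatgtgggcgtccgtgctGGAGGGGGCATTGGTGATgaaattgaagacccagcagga
Ryr3: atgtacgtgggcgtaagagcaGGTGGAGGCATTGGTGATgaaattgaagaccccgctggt
Itpr1: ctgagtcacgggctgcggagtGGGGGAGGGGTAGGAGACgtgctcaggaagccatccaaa
Itpr2: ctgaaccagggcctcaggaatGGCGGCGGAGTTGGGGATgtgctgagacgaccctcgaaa
Itpr3: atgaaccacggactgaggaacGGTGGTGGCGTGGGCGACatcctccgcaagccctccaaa
Ryr2 and Ryr3 were identical at 50 of these 60 bases, Ryr1 and Ryr2 at 46, and Ryr1 and Ryr3 at 45. The IP3 receptors were identical to each other at 40 to 43 bases, and a ryanodine receptor to an IP3 receptor at 24 to 33. Over whole transcripts, no run of 50 bases was shared between members of a family, while reads were 150 bases long. Of the 10 genes only Ryr2 shared any run of 50 bases with the transcript of another gene, at 13 of its 16765 positions (0.0775%). Transcripts were compared in their own direction only, so bases shared with a gene on the opposite strand, as for Ryr3 and Aven below, were not counted.

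The hearts differed in ways that touch these genes. Their totals were between 44244665 and 56373393 counts. In wild type replicate 5, the heart with the fewest counts, long transcripts were under-represented. The 874 tested genes with a longest coding transcript of at least 8000 bases had a median log2 ratio of -0.56 in that heart against the mean of the other wild type hearts, and the 9151 genes under 3000 bases a median of 0.18. The transcripts of 6 of the 10 genes, the 6 channels, exceed 8000 bases. Wild type replicate 3 carried RNA of other tissues. The summed CPM (counts scaled to the library total, with TMM factors) of 5 hepatocyte markers was 744 there and 0.801 to 19.6 in the other hearts, and 8 of 10 skeletal muscle markers were highest in that heart. Cardiomyocyte markers summed to 21766 to 26771 CPM in wild type and 25136 to 28182 CPM in mutant hearts, and none of the 10 markers was at 0. In whole hearts, fewer cells of a type and less RNA per cell cannot be told apart. Wt1 itself was counted at 20.0 to 40.0 CPM in wild type and 17.7 to 35.7 CPM in mutant hearts, a count over the whole gene that does not check the deletion.

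Per transcript length, Casq1, Jph2 and Casq2 stood far above the channels in the wild type hearts, while Trdn lay near Ryr2. The FPKM (fragments scaled by gene length and library total) in the deposited table divides by 1 length per gene, which was within 1 base of the mean over the annotated transcripts for 76.0% of the genes compared. For Itpr2 this length was 2886 bases against 11679 bases in its longest coding transcript, for Itpr1 it was 2895 against 9870, and for Ryr3 6645 against 15468. For Ryr1, Ryr2, Itpr3 and Trdn both lengths agreed within 1 base. The length used for Itpr1 and Ryr3 was not their mean either, which was 2784 bases for Itpr1 and 7033 bases for Ryr3. The deposited FPKM thus did not follow 1 length rule within the Ryr or the Itpr family. Levels are therefore given both as deposited and on the longest coding transcript.

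On the longest coding transcript, Casq1 led the wild type hearts with 105 ± 10.4 FPKM (SD, n = 3), followed by Jph2 with 100.2 ± 6.32 FPKM, and their ranges overlapped. Casq2 followed with 66.4 ± 14.2 FPKM, below the range of Jph2. Trdn was at 16.1 ± 1.26 FPKM, Ryr2 at 12.1 ± 4.72 FPKM and Itpr1 at 5.65 ± 1.73 FPKM, and the range of Ryr2 overlapped both of its neighbours in this order. Itpr2 was at 3.0 ± 0.701 FPKM, below the range of Itpr1. Itpr3 was at 1.68 ± 0.457 FPKM and Ryr3 at 1.01 ± 0.227 FPKM, with overlapping ranges, and Ryr1 came last at 0.138 ± 0.105 FPKM. The FPKM as deposited placed 8 of the 10 genes at another rank. It put Itpr1 at 19.3 ± 5.91 FPKM and Itpr2 at 12.1 ± 2.83 FPKM, level with Ryr2, and Casq2 at 119 ± 25.6 FPKM ahead of Jph2, with overlapping ranges. In the mutant hearts Casq2 had the highest mean on both lengths, 120 ± 38.6 FPKM on the longest transcript and 215 ± 69.4 FPKM as deposited, and its range overlapped that of the next gene in both orders.

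**Figure D1:**
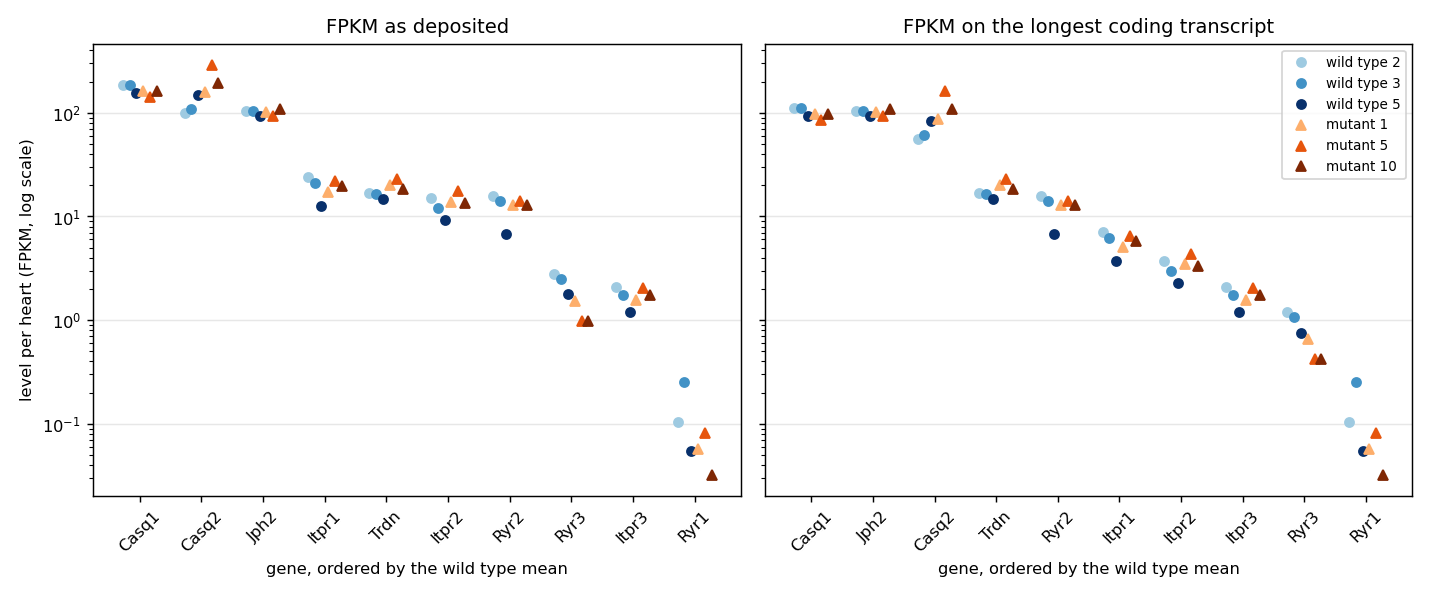
Level of each gene in each heart in FPKM on a log scale, with the length used in the deposited table (left) and with the longest coding transcript (right). Points are single hearts, circles wild type and triangles mutant, and genes are ordered by the wild type mean. Casq1, Casq2 and Jph2 lie at the top of both panels and Ryr1 at the bottom, while Itpr1 and Itpr2 drop below Ryr2 on the longest transcript.

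The comparison of mutant with wild type hearts asks which of these genes differ when Wt1 is deleted in the troponin lineage. Casq2 and Trdn were higher and Ryr3 was lower in every mutant heart than in every wild type heart, and the other 7 genes overlapped between the groups. The main test was the quasi-likelihood test of edgeR, with p-values adjusted over all genes by Benjamini-Hochberg. None of these differences passed it, and it called 0 of the 10 genes and 0 of the 17473 tested (0%). At an unadjusted p under 0.05 it found 3 of the 10 genes and 1002 of all genes (5.73%), with 3.14% of all genes higher and 2.59% lower. DESeq2 called 2 of the 10 genes, Ryr3 and Casq2, and 133 of the 19282 genes to which it gave an adjusted p (0.690%). Groups did not overlap for 3 of the 10 genes and for 11.2% of all genes. Over the 10 genes the log2 fold change had a median of 0.09, 7 genes being higher and 3 lower, and its median over all genes tested was -0.0010. Without wild type replicate 5 the median of the 10 genes was -0.09.

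Ryr3 was counted at 18.3, 16.3 and 11.8 CPM in wild type replicates 2, 3 and 5, and at 10.1, 6.49 and 6.96 CPM in mutant replicates 1, 5 and 10. The groups did not overlap, although the lowest wild type heart and the highest mutant heart lay close together. The log2 fold change was -0.98 (SE 0.220), a 1.98-fold lower level in the mutant hearts, with an unadjusted p of 0.00203 and an adjusted p of 0.385 in edgeR and an adjusted p of 0.00663 in DESeq2. Leaving out single hearts gave values from -1.20 to -0.84, and the value was -1.06 with each heart's trend over transcript length removed. With each heart left out, DESeq2 called Ryr3 in 2 of 6 fits, without wild type replicate 5 (adjusted p = 5.80e-06) and without mutant replicate 1 (adjusted p = 0.000536), and the highest adjusted p of the other fits was 0.204. The exons of Ryr3 overlap those of Aven on the opposite strand over 4.83% of their bases, and Aven had 979 to 1280 counts in each heart. Whether the counting used strand is not given in the sources used here, so reads of both genes in that stretch cannot be told apart.

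Ryr2, the channel of cardiac calcium release, was counted at 260, 230 and 114 CPM in wild type hearts and at 211, 238 and 227 CPM in mutant hearts. The mutant hearts lay within the wild type range, and the low value was that of wild type replicate 5. The log2 fold change of 0.16 (SE 0.265, adjusted p = 0.985 in edgeR) became -0.12 (SE 0.0913) without that heart. In wild type replicate 5, Ryr2 had a log2 ratio of -1.09 against the other wild type hearts, further down than the median of genes with transcripts this long. That of Ryr1 was -1.16, but it rests on 37 counts in replicate 5. Its reference also includes wild type replicate 3, with 3.84 CPM of Ryr1 against 1.58 CPM in replicate 2.

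Ryr1, the skeletal muscle channel, was counted at 1.58, 3.84 and 0.841 CPM in wild type hearts and at 0.866, 1.26 and 0.517 CPM in mutant hearts. These levels rest on 26 to 221 counts per heart. The groups overlapped, and wild type replicate 3 was the highest. The log2 fold change was -1.25 (SE 0.567, adjusted p = 0.898 in edgeR) with all hearts and -0.46 (SE 0.473, adjusted p = 0.964) without wild type replicate 3. Without wild type replicate 5 it was -1.62, and DESeq2 then called it with an adjusted p of 0.0440. Myog, a transcription factor of skeletal muscle differentiation, had 20.3 CPM in wild type replicate 3 and 0.81 to 2.65 CPM in the other hearts, and the embryonic myosin gene Myh3 had 27.4 CPM there and 1.26 to 2.73 CPM elsewhere. Atp2a1, the calcium pump of fast skeletal muscle, also had its highest level in that heart, with 4.47 CPM. The part of skeletal muscle RNA in the Ryr1 difference was not tested beyond leaving that heart out.

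**Figure D2:**
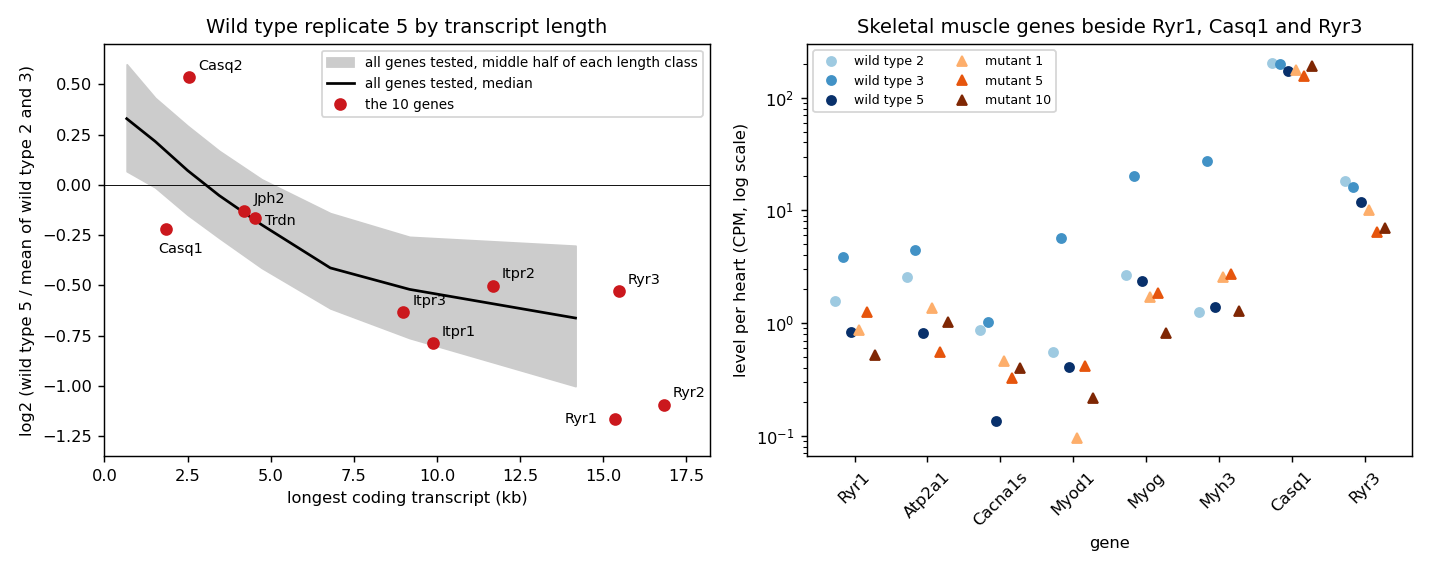
Left, log2 ratio of wild type replicate 5 to the mean of wild type replicates 2 and 3 against transcript length in kb, with the median (line) and middle 50% (grey) of all tested genes by length class and the 10 genes as points. Right, CPM on a log scale of skeletal muscle genes beside Ryr1, Casq1 and Ryr3, with 1 point per heart. The channels with long transcripts lie below 0 on the left and Casq2 lies above it; on the right wild type replicate 3 is highest for Ryr1, Atp2a1, Cacna1s, Myod1, Myog and Myh3, but not for Casq1 or Ryr3.

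Within a heart, the 3 ryanodine receptors can be set against each other, which removes only what acts on all 3 alike. For every Ryr2 count there were 0.0706, 0.0706 and 0.103 Ryr3 counts in wild type hearts and 0.0476, 0.0273 and 0.0306 in mutant hearts. The groups did not overlap, and wild type replicate 5 was the highest rather than the lowest. In that heart the log2 ratio to the other wild type hearts was -1.09 for Ryr2 and -0.53 for Ryr3. The 2 genes were thus not low alike there, and its Ryr3 to Ryr2 ratio and Ryr3 share keep this difference. On the longest transcript, Ryr3 made up 8.04% ± 1.72 (SD, n = 3) of the summed FPKM of the family in wild type and 3.66% ± 1.09 (n = 3) in mutant hearts, and Ryr2 made up 91.0% ± 1.55 and 95.9% ± 1.09. With the deposited FPKM the share of Ryr3 was 16.9% ± 3.23 and 8.10% ± 2.29, also without overlap. No test was made of these shares, since they come from the contrast by which the genes were chosen.

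The IP3 receptors overlapped between the groups. Itpr1, the most abundant of them here, was counted at 68.8, 59.5 and 36.9 CPM in wild type and at 48.8, 63.2 and 60.5 CPM in mutant hearts. Its log2 fold change was 0.06 (SE 0.219, adjusted p = 0.990 in edgeR) and -0.16 without wild type replicate 5. Itpr2, which has a high affinity for IP3 and is the form best known in cardiomyocytes, was at 42.5, 34.5 and 26.9 CPM against 39.5, 50.1 and 41.4 CPM. Its log2 fold change was 0.33 (SE 0.175, adjusted p = 0.939), and it stayed positive, at 0.18 or more, whichever heart was left out. Itpr3 was at 18.6, 15.4 and 10.7 CPM in wild type and 13.8, 18.3 and 16.7 CPM in mutant hearts, with a log2 fold change of 0.12 (SE 0.204, adjusted p = 0.985). In all 3 genes the lowest heart was wild type replicate 5, and the wild type range held 2 or more of the mutant hearts.

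The make-up of the IP3 receptor family varied little between hearts. On the longest transcript, Itpr3 made up 15.5% to 16.5% of the summed FPKM in each of the 6 hearts, and the groups overlapped. With the deposited FPKM its share was 5.08% ± 0.0602 (SD, n = 3) in wild type and 4.91% ± 0.119 (n = 3) in mutant hearts, without overlap. On the longest transcript Itpr1 made up 54.3% ± 2.43 (SD, n = 3) in wild type and 51.2% ± 1.69 (n = 3) in mutant hearts, and Itpr2 29.4% ± 2.20 and 32.9% ± 1.92, both with overlapping groups. The shares of Itpr2 depended on the length used, since the deposited FPKM gave it 37.1% ± 2.68 in wild type and 41.2% ± 2.18 in mutant hearts.

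**Figure D3:**
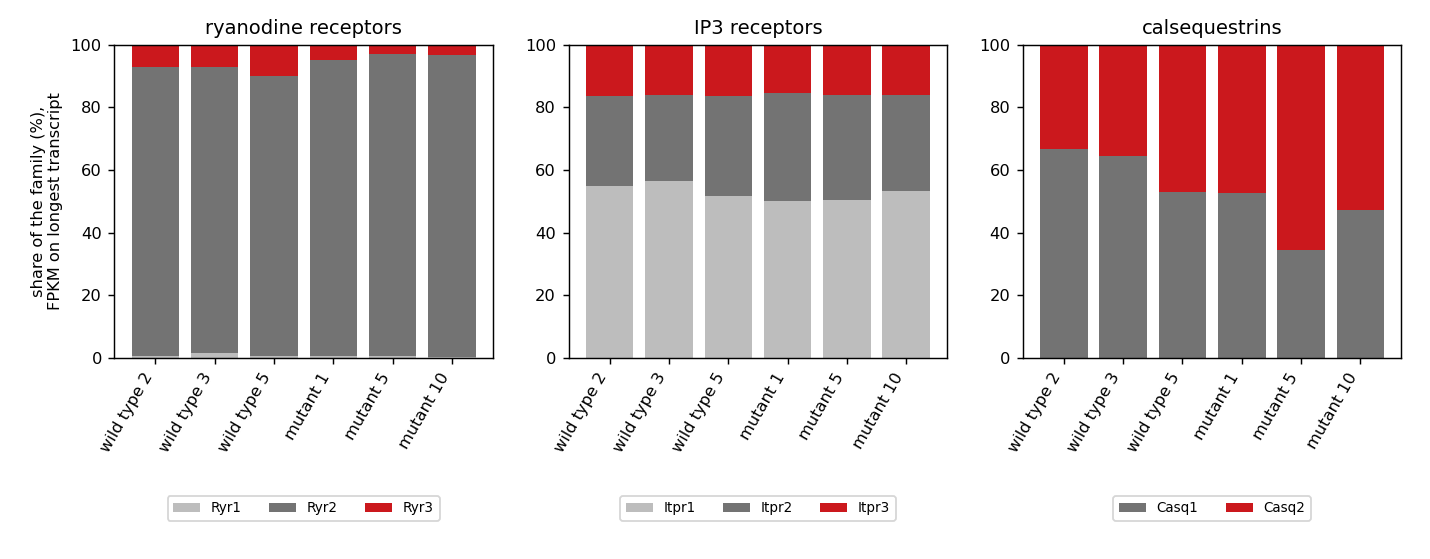
Share of each gene in the summed FPKM of its family, in percent, in each heart, with FPKM computed on the longest coding transcript. The share of Ryr3 is smaller and that of Casq2 larger in the 3 mutant hearts than in any wild type heart, with wild type replicate 5 and mutant replicate 1 close together for Casq2 (46.9% and 47.3%), and the IP3 receptor shares overlap on this length for Itpr1, Itpr2 and Itpr3, though not for Itpr3 with the deposited FPKM.

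Casq2, the cardiac calsequestrin, was counted at 141, 152 and 212 CPM in wild type hearts and at 221, 414 and 292 CPM in mutant hearts. The groups did not overlap, but the highest wild type heart, replicate 5, and the lowest mutant heart, replicate 1, lay close together, and mutant replicate 5 stood highest. The log2 fold change was 0.88 (SE 0.245), a 1.84-fold higher level in the mutant hearts, with an unadjusted p of 0.00706 and an adjusted p of 0.585 in edgeR and an adjusted p of 0.0365 in DESeq2. The extremes with a heart left out were 0.60, when mutant replicate 5 was absent, and 1.08, when wild type replicate 5 was absent, and the value was 0.90 with the length trend removed. DESeq2 called Casq2 in 1 of 6 fits with a heart left out, without mutant replicate 1 (adjusted p = 0.00285), and not in the other 5 (adjusted p up to 0.624).

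Casq1, the calsequestrin of fast skeletal muscle, was counted at 204, 201 and 173 CPM in wild type and at 178, 157 and 189 CPM in mutant hearts. The groups overlapped, with a log2 fold change of -0.14 (SE 0.118, adjusted p = 0.985 in edgeR). Casq1 was no higher in wild type replicate 3, where Myog had 20.3 CPM, than in replicate 2, where Myog had 2.65 CPM. The part of skeletal muscle RNA in the level of Casq1 was not tested. The exons of Casq1 share 7.996% of their bases with Gm17224 on the opposite strand, which had 0 to 10 counts per heart.

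The ratio of both calsequestrins was higher in every mutant heart, by a narrow margin between wild type replicate 5 and mutant replicate 1. For every Casq1 count there were 0.690, 0.759 and 1.22 Casq2 counts in wild type hearts and 1.24, 2.65 and 1.55 in mutant hearts. On the longest transcript Casq2 made up 38.5% ± 7.35 (SD, n = 3) of the pair in wild type and 55.3% ± 9.41 (n = 3) in mutant hearts, without overlap. The ratio of Casq2 to Jph2 counts overlapped between the groups, with 0.325, 0.357 and 0.540 in wild type and 0.526, 1.06 and 0.608 in mutant hearts.

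The promoters of the calsequestrins are shown because the groups did not overlap for Casq2 and overlapped for Casq1. The 300 bases of each, 250 before and 50 after the RefSeq start site (GRCm38.p6), are written 5′ to 3′ on the strand of the gene, at chr1:172219846-172220145 (minus strand) for Casq1 and chr3:102086165-102086464 (plus strand) for Casq2, with the match to the MEF2 motif in capitals.
Casq1: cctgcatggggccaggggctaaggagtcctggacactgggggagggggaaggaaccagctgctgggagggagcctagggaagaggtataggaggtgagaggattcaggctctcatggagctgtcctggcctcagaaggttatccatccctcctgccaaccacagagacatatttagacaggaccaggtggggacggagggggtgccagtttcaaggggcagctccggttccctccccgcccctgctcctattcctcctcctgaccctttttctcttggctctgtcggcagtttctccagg
Casq2: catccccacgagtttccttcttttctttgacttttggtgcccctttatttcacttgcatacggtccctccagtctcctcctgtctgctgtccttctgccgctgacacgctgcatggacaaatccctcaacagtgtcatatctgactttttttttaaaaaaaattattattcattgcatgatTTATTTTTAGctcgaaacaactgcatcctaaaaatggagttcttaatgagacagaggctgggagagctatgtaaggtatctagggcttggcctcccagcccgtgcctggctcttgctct
Both strands were searched for the motif of MEF2, a transcription factor of muscle, the CArG box bound by serum response factor, and GNGTGGGNG, a form of the zinc finger site that WT1 and EGR proteins bind. Casq2 held 1 match, to the MEF2 motif at position -69 from the start site, and Casq1 held none of the 3 motifs. GC made up 44.7% of the Casq2 promoter and 60.3% of the Casq1 promoter, against a median of 52.7% over all promoters. Among the 7 of 10 genes with a promoter in the RefSeq table, GNGTGGGNG was found in Itpr2 at -119 and in Jph2 at 36 bases past the start site. For Jph2 this was the entry at chr2:163397924-163398223, and its other entry, at chr2:163397944-163398243, held 0 matches. Of all 32851 promoters of this length, 3.19% held the MEF2 motif, 1.63% the CArG box and 14.3% GNGTGGGNG. Ryr3, Itpr1 and Trdn had no entry in the table.

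Trdn, which anchors calsequestrin to the ryanodine receptor, was counted at 75.4, 73.7 and 66.4 CPM in wild type hearts and at 90.1, 102 and 88.3 CPM in mutant hearts. The groups did not overlap, and the gap between them was wider than the spread within the wild type hearts. The log2 fold change was 0.38 (SE 0.105), a 1.30-fold higher level, with an unadjusted p of 0.00648 and an adjusted p of 0.578 in edgeR and 0.242 in DESeq2. Leaving out single hearts gave values from 0.30 to 0.42, and DESeq2 called it in 1 of the 6 fits, without wild type replicate 5 (adjusted p = 0.0482). The ratio of Trdn to Ryr2 counts overlapped between the groups.

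Jph2, which holds the SR against the plasma membrane, had the highest mean count of the 10 genes in both groups, though Casq2 had more counts in mutant replicate 5, and its fitted difference with all 6 hearts was the smallest. It was counted at 433, 427 and 393 CPM in wild type and at 420, 391 and 481 CPM in mutant hearts, and the groups overlapped. Its log2 fold change was 0.04 (SE 0.120, adjusted p = 0.990 in edgeR) and -0.03 with the length trend removed.

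**Figure D4:**
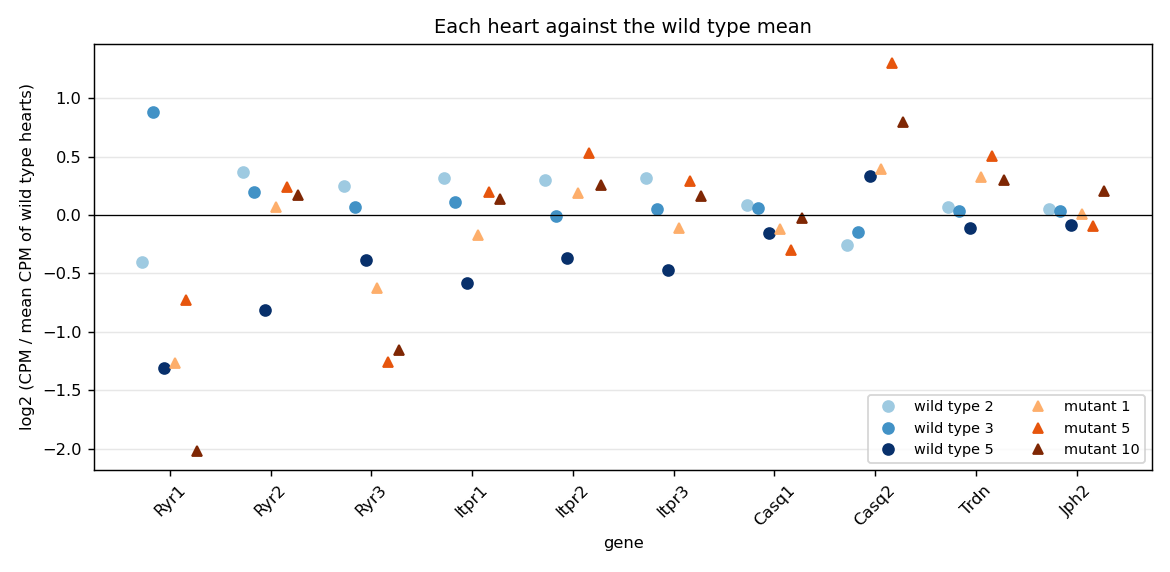
Log2 ratio of the CPM of each heart to the mean CPM of the wild type hearts, by gene, with circles for wild type and triangles for mutant hearts. The mutant hearts lie below all wild type hearts for Ryr3 and above them for Casq2 and Trdn, and wild type replicate 5 is the lowest heart for Ryr2 and the IP3 receptors.

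The proteins that work beside ryanodine receptors at the junction were read from a list of 32 genes, all of which were tested. None passed the edgeR test, 19 were higher and 13 lower, the median log2 fold change was 0.10, and 4 of 32 did not overlap between the groups, beside 11.2% of all genes. Unadjusted p was under 0.05 for 1 gene that was higher, Pln, and 1 that was lower, Atp2a1. Pln, phospholamban, the inhibitor of the SR calcium pump, was counted at 708, 850 and 956 CPM in wild type and at 1009, 1123 and 1236 CPM in mutant hearts. Its groups did not overlap, with a log2 fold change of 0.42 (SE 0.150, unadjusted p = 0.0223, adjusted p = 0.765 in edgeR). The pump itself, Atp2a2, was at 1885, 1623 and 1112 CPM against 1355, 1539 and 1596 CPM, overlapping and lowest in wild type replicate 5.

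The other partners set to be named had smaller fitted differences than Pln. Cacna1c, the pore of the cardiac L-type calcium channel, was at 83.5 to 124 CPM in wild type and 118 to 133 CPM in mutant hearts, a log2 fold change of 0.21 (SE 0.158) that was 0.05 without wild type replicate 5. Asph, whose products include junctin, the partner of triadin, was at 192 to 238 CPM against 226 to 272 CPM, with a log2 fold change of 0.20 (SE 0.126) that was 0.11 without that heart. Hrc, a calcium-binding protein of the SR lumen, had a log2 fold change of 0.17 (SE 0.227). Fkbp1b, the FK506-binding protein of Ryr2, was at 6.55 to 6.998 CPM against 7.12 to 8.12 CPM, without overlap, with a log2 fold change of 0.15 (SE 0.134). The edgeR adjusted p of these genes was 0.966 or more.

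Of 28 genes that make, sense or remove IP3 or bind its receptors, 27 were in the tables and 26 were tested. None passed the edgeR test, 17 were higher and 9 lower, the median log2 fold change was 0.10, and 5 of 26 did not overlap between the groups, beside 11.2% of all genes. Unadjusted p was under 0.05 for 2 genes, both higher, of which Plcg2 did not overlap. Plcg2, a phospholipase C of blood cells, was at 16.5, 14.3 and 9.54 CPM in wild type and at 17.1, 19.7 and 19.02 CPM in mutant hearts, with a log2 fold change of 0.47 (SE 0.193, unadjusted p = 0.0412, adjusted p = 0.847 in edgeR) that was 0.27 without wild type replicate 5. All 5 macrophage markers were also higher in the mutant hearts, with a sum of 90.3 to 107 CPM against 53.7 to 69.0 CPM. Within the wild type hearts that sum was 53.7, 62.7 and 69.0 CPM, rising where Plcg2 fell. All 5 endothelial markers were higher in the fit too. Their sum was 755, 631 and 490 CPM in wild type and 655, 857 and 792 CPM in mutant hearts, with overlap. The part of either cell type in the level of Plcg2 was not tested.

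The levels of cardiac region markers are given because regions of the heart differ in these genes. The sum of 5 sinus venosus markers was 138 to 169 CPM in wild type and 124 to 131 CPM in mutant hearts, and 4 of the 5 were lower. The sum of 6 atrial markers was 3972 to 5351 CPM against 3585 to 4841 CPM, with 5 of 6 lower. In each of these lists 3 of the lower markers had an unadjusted p under 0.05 in edgeR, beside 2.59% of all genes. The sum of 5 ventricular markers was 6330 to 7895 CPM against 7309 to 8722 CPM, with 5 of 5 higher. Of these, 1 had an unadjusted p under 0.05, beside 3.14% of all genes. The part of these regions in the differences of Ryr3, Casq2 and Trdn was not tested.

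**Figure D5:**
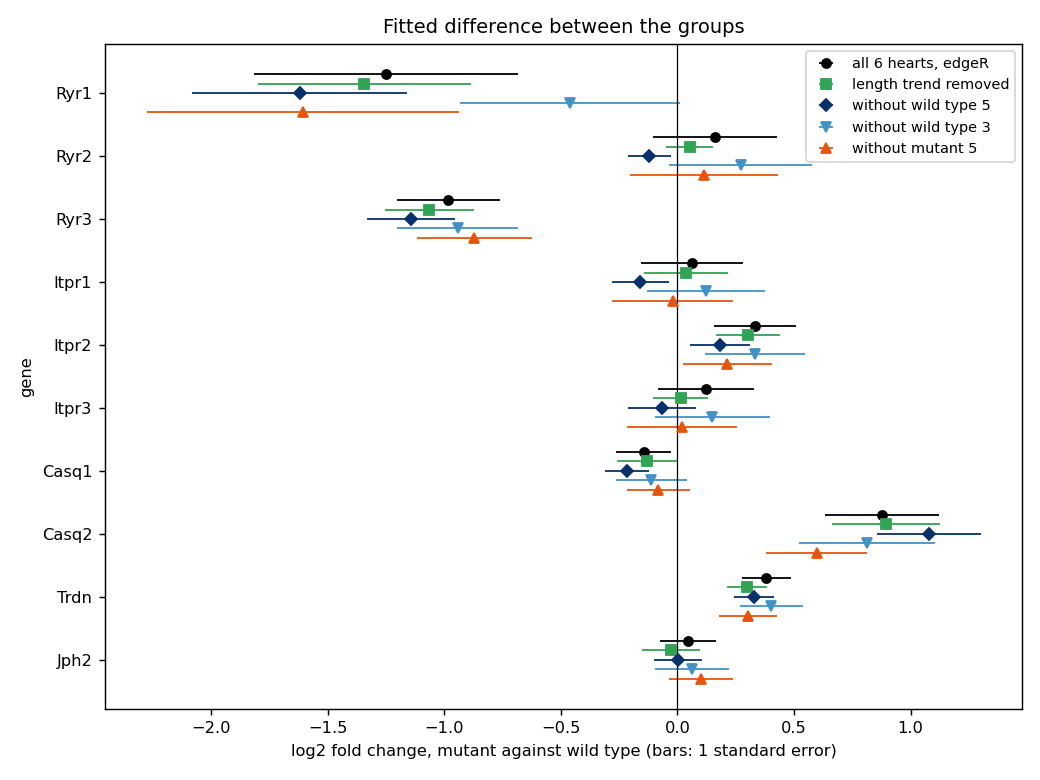
Log2 fold change of mutant against wild type hearts for each gene, with bars of 1 standard error, in the edgeR fit of all 6 hearts, with the length trend removed, and without wild type replicate 5, wild type replicate 3 or mutant replicate 5. Ryr3 stays below 0 and Casq2 and Trdn above 0 in all 5 fits, Ryr1 moves from -1.25 to -0.46 without wild type replicate 3, and Ryr2 changes sign without wild type replicate 5.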

How the data were processed

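The authors extracted RNA from single E13.5 hearts, made TruSeq libraries, sequenced read pairs of 150 bases, aligned them with STAR to mm10 and assigned uniquely mapped reads to genes with featureCounts, while the submitters' processing notes name HTSeq and DESeq2. The deposited counts are raw reads per gene. The deposited FPKM are those counts divided by 1 length per gene and by the total of the heart. Totals were 44244665 to 56373393 counts, and all columns were mapped to a heart. Reads carried no stated molecular identifiers, so counts are not independent molecules.

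Counts were tested with edgeR 4.0.16 in R 4.3.3 (quasi-likelihood, TMM, filterByExpr at its defaults of 10 counts and 15 in total, two-sided, no covariate), with Benjamini-Hochberg adjustment over 17473 genes and a threshold of 0.05. The script was tested on simulated data. Alternatives were DESeq2 1.42.0, limma 3.58.1 (voom, and trend on log2 of FPKM plus 1 or 0.1), other size factors and filters, removal of each heart's length trend (local regression, span 0.5), and each heart left out. DESeq2 with each heart left out and everything on the longest transcript were added after the data were seen. With 3 hearts in each group, p-values set the group difference against the spread between these embryos, estimated partly from all genes.

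The members and lists were chosen with earlier results of these data known. Genes named are the 10 members, Wt1, fixed junction partners (Cacna1c, Asph, Hrc, Fkbp1b, Atp2a2, Pln), list genes with an unadjusted p under 0.05 and groups that did not overlap, and the 3 genes most correlated with Ryr3 and Casq2 at a mean CPM of at least 1. Atp2a1, Cacna1s, Myod1, Myog, Myh3, Aven and Gm17224 were named after their values were seen. Sequences came from GENCODE M21 transcripts and RefSeq promoters.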

Additional observations from a re-analysis of the deposited data

How the results depend on the processing

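No paired analysis was possible because the labels name no litter or pairing. Replicate number 5, held by both groups, is not stated to link those hearts. The number of genes called, 0 in edgeR, was 133 with DESeq2, 34 with no filter on low counts, and 6 with the length trend removed (16 on the longest transcript). With each heart left out it was 0 to 44 in edgeR, 44 without wild type replicate 5, and 71 to 447 in DESeq2. DESeq2 called 2 of the 10 genes with all hearts and 0 to 3 with a heart left out. It called 3 without wild type replicate 5, beside 447 of all genes, and 2 without mutant replicate 1, beside 138 of all genes. Of the junction partners it called 0 to 5, with 5 called without wild type replicate 5. The share of all genes called was not computed for the fits with a heart left out. The causes were not tested. Ryr3, Casq2, Trdn, Ryr1, Itpr2 and Casq1 kept their direction under all 22 alternatives. With the length trend removed, Jph2 turned to -0.026, and Itpr1 to -0.031 on the longest transcript (log2). With a heart left out, in edgeR and DESeq2 together, the log2 fold change was -0.12 to 0.39 for Ryr2, -0.16 to 0.25 for Itpr1, -0.068 to 0.31 for Itpr3, -0.043 to 0.10 for Jph2, -0.070 to 0.36 for Hrc and -0.23 to 0.13 for Atp2a2. Ryr2, Itpr1, Itpr3 and Hrc turned negative without wild type replicate 5. Counts not divided by length gave Ryr3 7.45% of its family in wild type and 3.38% in mutant hearts and Itpr2 33.5% and 37.2%, the longest transcript 8.04% and 3.66%, and 29.4% and 32.9%. On that length 8 of the 10 genes changed rank in the wild type hearts. Depth limits Ryr1 most, at 26 to 221 counts per heart.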

Other observations

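Over the 6 hearts, the genes whose log2 CPM followed Ryr3 most closely among 14155 genes compared were Lacc1 (Pearson r = 0.989), Isoc2b (r = 0.983) and Rbmxl1 (r = 0.981). Lacc1, an enzyme of macrophage metabolism, was at 11.2, 11.02 and 9.41 CPM in wild type and 9.12, 8.18 and 8.19 CPM in mutant hearts, a narrower range than that of Ryr3. Casq2 was followed most closely by Laptm5 (r = 0.986), Tlr13 (r = 0.985) and Ndnf (r = 0.984). Laptm5, a lysosomal membrane protein of blood cells, was at 11.7, 13.1 and 14.3 CPM in wild type and 14.8, 18.9 and 16.1 CPM in mutant hearts. Ndnf, a secreted neurotrophic factor, was at 3.48, 3.74 and 5.11 CPM in wild type and 4.64, 10.4 and 7.61 CPM in mutant hearts, overlapping between the groups. These correlations describe 6 points that share the group difference and the depth of each library, and no p is given.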
